A study of Mus musculus with 12 samples.

Results

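The 32 genes described here encode the steps of glucose uptake, glycolysis, pyruvate handling and glycogen turnover, together with genes known to respond to low oxygen. Each was taken by its symbol from the deposited gene tables, where all 32 were found among 78298 rows. All 32 were also among the 13318 genes with enough counts to be tested. They were measured by poly(A)-selected RNA sequencing in muscle tissue made from C2C12, an established mouse myoblast line. The RGECO line carries a genetically encoded calcium indicator and gave 5 usable libraries, and unmodified wild-type C2C12 cells (WT) gave 6. Cells of both lines were kept on gels of methacrylated gelatin and allowed to differentiate over 14 days in high-glucose medium with 10% inactivated horse serum, 50 ng/ml IGF-1 and 1 mg/ml aminocaproic acid, after growth as myoblasts in the same base medium with 10% fetal bovine serum. The labels give no oxygen condition for either line. Whether the RGECO line is a single clone, and which promoter drives the indicator, is not given in the sources used here. RGECO replicate 4 held 825 counts, with 0 counts in all 32 genes, and is left out of every value unless all 12 libraries are named. Each comparison asks how far the indicator line resembles its parent in these genes.

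Glycolysis splits glucose into pyruvate in the cytosol. Hexokinase and phosphofructokinase spend ATP in the preparatory steps, and the enzymes from glyceraldehyde-3-phosphate dehydrogenase to pyruvate kinase return it in the payoff steps. Skeletal muscle uses its own isozymes for several steps, stores glucose as glycogen, and turns pyruvate into lactate when ATP demand outruns oxidation. When oxygen is low, prolyl hydroxylases no longer mark hypoxia-inducible factor (HIF) for destruction, and HIF raises many glycolytic genes along with genes of blood vessel growth, acid balance and mitophagy.

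Most of the 32 genes were expressed at like levels in both lines. In the count test 1 gene rose in RGECO, the heart-type lactate dehydrogenase subunit Ldhb, and 3 fell, the aldolase isozyme Aldoc, the muscle enolase Eno3 and the carbonic anhydrase Car9. These 4 of 32 genes are 12.5%, beside 8.35% of all genes tested, of which 3.42% rose and 4.93% fell (edgeR's quasi-likelihood test, Benjamini-Hochberg adjusted p under 0.05). The median log2 fold change, RGECO over WT, was 0.04 over the 32 genes and -0.01 over all genes tested, and it was above 0 for 19 of the 32 genes and for 48.5% of all genes tested. In 0 of the 32 genes were the ranges of the lines apart, in TMM-scaled CPM, counts relative to library size, whereas they were apart in 7.97% of all genes tested. A change of 2-fold or more either way was outside the 95% interval for 30 of the 32 genes, or 93.8%, against 74% of all genes tested. The exceptions were Aldoc and the vasodilator peptide gene Adm. Intervals tend to be narrower for genes with many counts, and the 32 genes were not matched to all genes tested by abundance. The labels do not say that replicates were separate cultures, so these p-values measure the spread between libraries, which may be technical. In bulk tissue, fewer cells of a type and less RNA per cell cannot be told apart.

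The number of genes called depends on the fit. Leaving out 1 library at a time gave 1 to 4 called genes, and Aldoc was among them each time. Aldoc was the 1 call left without RGECO replicate 2 or 6 or WT replicate 1 or 5, and 2 genes were called without RGECO replicate 3 or WT replicate 3, 4 or 6. DESeq2's Wald test called 7, adding Pdk4, Adm and Egln1, against 9.57% of all genes. The replicate block left Aldoc and Car9, against 5.83% of all genes, and keeping RGECO replicate 4 gave Aldoc and Adm, against 6.31%. Eno3, at an adjusted p of 0.0493, kept its call only without RGECO replicate 3 and lost it without any of the other libraries (adjusted p = 0.0599 to 0.138). On log2(TPM + 1), with TPM the transcript share scaled per length and to a fixed total, limma called Ldhb alone, against 4.29% of 13246 genes tested, and with a pseudocount of 0.1 again Ldhb alone, against 4.05%. Without a filter on low TPM it called 0 of the 32, against 0.885% of all genes. The median over all genes was -0.01 on CPM and 0.09 on log2(TPM + 1) with the filter, so the members' medians of 0.04 and 0.14 lay above it by like amounts. When the share of counts from the nuclear RNA Malat1 was added as a covariate, 12 of the 32 genes were called, 5 higher and 7 lower, against 20.8% of all genes. With the share of mitochondrially encoded counts as a covariate 11 were called, 5 higher and 6 lower, against 23.5% of all genes. The Malat1 share was 0.18% to 0.645% in RGECO libraries and 0.156% to 0.898% in WT libraries. The mitochondrial share was 0.298% to 1.33% in RGECO libraries and 0.204% to 1.68% in WT libraries.

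**Figure D1:**
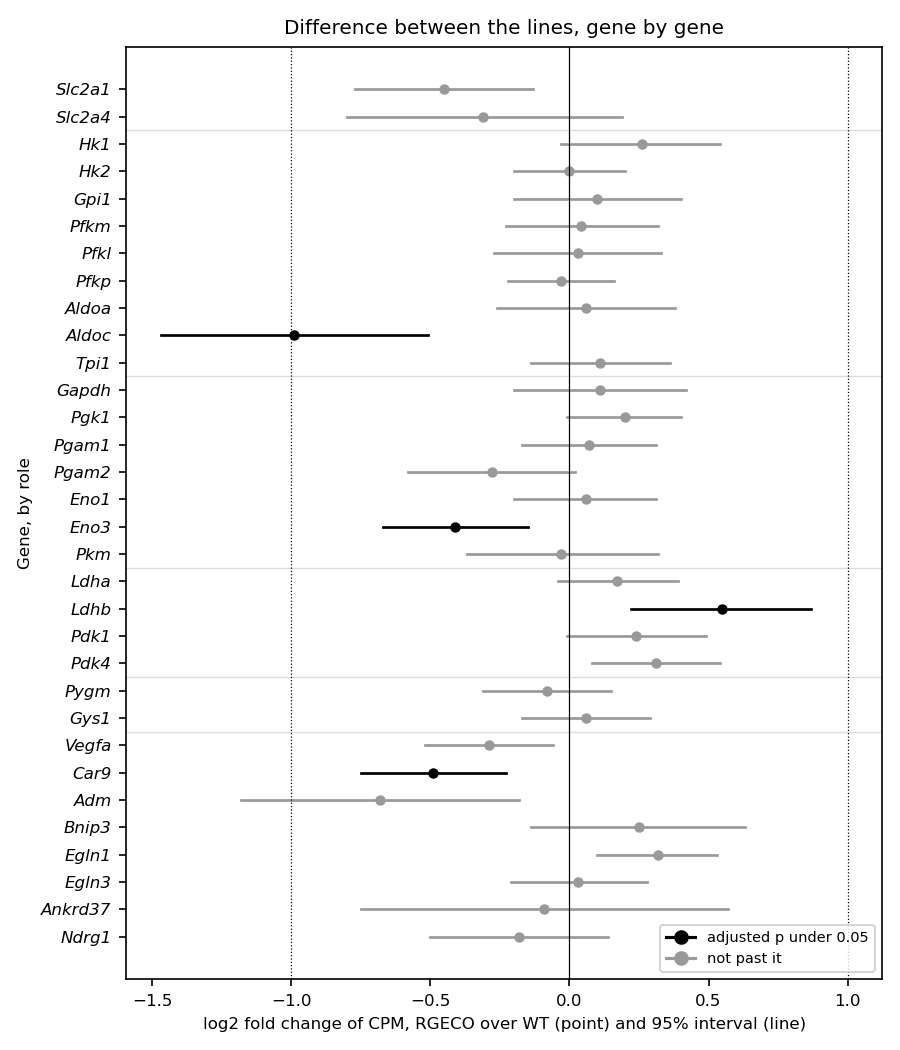
Log2 fold change of CPM, RGECO over WT, for each of the 32 genes by role from top to bottom, with its 95% interval; black marks adjusted p under 0.05 and dotted lines mark 2-fold. Aldoc lies farthest to the left at -0.99 and Ldhb farthest to the right at 0.55, and the abundant enzymes Gapdh, Aldoa and Pkm lie near 0.

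HIF binds DNA at a short core, so the windows around the start sites of the 4 called genes are shown, with Ldha and Pgk1 beside them as enzymes of the same pathway that were not called. They span 250 bases before to 50 after the annotated start and come from RefSeq on GRCm38.p6. Capitals mark ACGTG and GCGTG on either strand, the letters of the HIF core, and overlapping matches count separately. The windows lie at chr4:43506776-43507075 for Car9 (plus strand), chr11:78322823-78323122 for Aldoc (plus), chr11:70656926-70657225 for Eno3 (plus), chr6:142507908-142508207 for Ldhb (minus), chr7:46845554-46845853 for Ldha (plus) and chrX:106186850-106187149 for Pgk1 (plus). Where a gene had several windows, as Aldoc and Ldha with 2 each, the one with most matches is printed.
Car9: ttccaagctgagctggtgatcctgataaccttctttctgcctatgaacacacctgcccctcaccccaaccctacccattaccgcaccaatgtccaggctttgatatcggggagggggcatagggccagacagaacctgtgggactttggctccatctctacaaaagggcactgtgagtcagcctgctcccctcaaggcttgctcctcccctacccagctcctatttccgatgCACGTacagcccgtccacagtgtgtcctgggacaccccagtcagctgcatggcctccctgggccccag
Aldoc: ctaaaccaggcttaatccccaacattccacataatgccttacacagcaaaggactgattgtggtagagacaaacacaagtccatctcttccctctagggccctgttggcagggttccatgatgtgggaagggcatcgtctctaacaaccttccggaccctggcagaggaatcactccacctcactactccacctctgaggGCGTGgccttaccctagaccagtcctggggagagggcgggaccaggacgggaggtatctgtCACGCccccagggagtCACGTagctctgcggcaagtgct
Eno3: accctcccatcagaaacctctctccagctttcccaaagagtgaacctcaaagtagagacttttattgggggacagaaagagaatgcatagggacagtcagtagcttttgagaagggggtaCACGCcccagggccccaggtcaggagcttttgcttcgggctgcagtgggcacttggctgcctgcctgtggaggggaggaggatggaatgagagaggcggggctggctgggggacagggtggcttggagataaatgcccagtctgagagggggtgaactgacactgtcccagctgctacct
Ldhb: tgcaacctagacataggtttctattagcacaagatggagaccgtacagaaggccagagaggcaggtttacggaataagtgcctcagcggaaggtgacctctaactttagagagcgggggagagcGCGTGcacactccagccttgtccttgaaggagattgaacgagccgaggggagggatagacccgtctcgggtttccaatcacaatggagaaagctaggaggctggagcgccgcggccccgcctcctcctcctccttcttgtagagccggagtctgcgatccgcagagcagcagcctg
Ldha: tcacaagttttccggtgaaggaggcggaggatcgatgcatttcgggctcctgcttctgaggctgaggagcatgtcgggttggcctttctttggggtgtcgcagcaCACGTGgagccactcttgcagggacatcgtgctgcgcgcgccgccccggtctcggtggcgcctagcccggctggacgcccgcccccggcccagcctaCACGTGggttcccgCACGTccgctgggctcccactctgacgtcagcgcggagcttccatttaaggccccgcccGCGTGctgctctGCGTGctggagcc
Pgk1: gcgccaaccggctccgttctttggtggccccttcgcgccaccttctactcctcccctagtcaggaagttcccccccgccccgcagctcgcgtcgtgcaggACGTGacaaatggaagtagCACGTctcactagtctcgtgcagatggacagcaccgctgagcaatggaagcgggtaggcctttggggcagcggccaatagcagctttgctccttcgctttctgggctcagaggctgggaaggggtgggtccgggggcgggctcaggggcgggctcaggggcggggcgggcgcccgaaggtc
Car9 has its 1 ACGTG at position -18 from the start, counted on the gene's strand. Ldha has 5 ACGTG matches, 4 of them from 2 copies of the palindrome CACGTG at -145 and -48, and 2 GCGTG matches after the start. Pgk1 has 2 ACGTG matches, at -150 and -131. In Eno3 and Ldhb the window holds 1 GCGTG match, at -130 and -126, and no ACGTG. Aldoc holds GCGTG at -50 and 12 and ACGTG at 28. As a check on the starts, 36 overlapping short stretches after each start were looked up in the gene's annotated transcripts. All 36 were found for Car9, Aldoc, Ldhb and Pgk1, but 10 for Eno3 and 1 for Ldha. Positions from the start are therefore less certain for Eno3 and Ldha. The printed windows thus differ in the core among called genes and among those not called.

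Of the 32 genes, 30 matched the RefSeq table, with 43 windows, and Slc2a4 and Ndrg1 did not. ACGTG occurred in 20 of the 43 windows, or 46.5%, and in 25.4% of the 12439 windows of genes tested here and 19.6% of all 32851 windows. By gene it occurred for 18 of 30, or 60.0%, beside 29.7% of genes tested and 21.8% of all genes in the table. GCGTG occurred in 58.1% of the members' windows, beside 50.3% for genes tested, and CACGTG in 6.98% beside 9.86%. Of the 7 matched hypoxia-response genes 6 had ACGTG, the exception being Adm, which had GCGTG. A match describes letters and not binding. The 32 genes include known HIF targets, so a higher share of the core may follow from how they were chosen. That share does not test HIF activity in these libraries.

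Glucose enters muscle cells mainly through Slc2a1 (GLUT1), the basal transporter, and Slc2a4 (GLUT4), the insulin-responsive one. Slc2a1 measured 167, 123, 130.5, 117 and 120.4 TPM in RGECO replicates 1, 2, 3, 5 and 6, against 199, 180.3, 143, 148, 188 and 162 TPM in WT replicates 1 to 6. All RGECO libraries but replicate 1 lay below every WT library. The log2 fold change of -0.45 ± 0.15 (SE) did not pass (edgeR adjusted p = 0.0805), though it passed at -0.46 with no filter on low counts (adjusted p = 0.0298) and at -0.54 and -0.55 with the Malat1 and mitochondrial covariates (adjusted p = 0.00546 and 0.0013). Slc2a4 was low in both lines, at 4.09 ± 1.29 TPM (SD, n = 5) in RGECO and 4.47 ± 0.967 TPM (SD, n = 6) in WT, with overlapping libraries (edgeR log2 fold change -0.31 ± 0.23, SE; adjusted p = 0.497).

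Of the 9 preparatory-step genes 0 rose and 1 fell, or 11.1% beside 8.35% of all genes, at a median log2 fold change of 0.04. Aldoc, the aldolase isozyme best known from brain, measured 12.9, 10.9, 13.5, 16.8 and 9.63 TPM in RGECO libraries, against 26, 28.6, 16.9, 12.1, 26.8 and 20.6 TPM in WT libraries. WT replicate 4 fell within the RGECO range and the other WT libraries lay above it. Its log2 fold change was -0.99 ± 0.23 (SE, edgeR adjusted p = 0.0115), and the call was lost on log2(TPM + 1), at -0.70 (limma adjusted p = 0.0919). Its abundant relative Aldoa, the muscle aldolase, averaged 3934 ± 461 TPM (SD, n = 5) in RGECO and 3497 ± 393 TPM (SD, n = 6) in WT (edgeR log2 fold change 0.06 ± 0.15, SE; adjusted p = 0.875). The hexokinases, which trap glucose as glucose-6-phosphate, did not pass either. Hk1 averaged 152 ± 45 TPM (SD, n = 5) in RGECO and 108 ± 16.4 TPM (SD, n = 6) in WT, with RGECO replicate 5 highest at 223 TPM. Hk2, the isozyme enriched in muscle, averaged 56.4 ± 4.37 TPM (SD, n = 5) in RGECO and 52.8 ± 3.64 TPM (SD, n = 6) in WT. For the isomerase Gpi1 the libraries ran from 1506 to 2343 TPM in RGECO and from 1232 to 1670.1 TPM in WT. Pfkm, Pfkl and Pfkp, the muscle, liver and platelet phosphofructokinases of the committing step, differed by 0.04, 0.03 and -0.03 on the log2 scale (edgeR adjusted p = 0.894, 0.946 and 0.901). Tpi1, which interconverts the triose phosphates, differed by 0.11 (edgeR adjusted p = 0.659).

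The 7 payoff-step genes include the most abundant of all 32, Gapdh, at 9979 ± 1328 TPM (SD, n = 5) in RGECO and 8162 ± 934 TPM (SD, n = 6) in WT. Gapdh ranked 7 among all genes by its median TPM rank over libraries, Aldoa 16, Pkm 39, Gpi1 50 and Eno1 56. None of these passed, and Gapdh differed by 0.11 ± 0.15 (SE, edgeR adjusted p = 0.727). Eno3, the muscle enolase, measured 349, 383, 495, 389 and 397 TPM in RGECO libraries, against 479, 475, 523, 469, 500.2 and 555 TPM in WT libraries. Only RGECO replicate 3 reached the WT range. Its log2 fold change was -0.41 ± 0.12 (SE, edgeR adjusted p = 0.0493). Eno1, the ubiquitous enolase, averaged 1610.5 ± 297 TPM (SD, n = 5) in RGECO and 1411 ± 136 TPM (SD, n = 6) in WT. Eno1 values are uncertain, because the row of its close copy Eno1b held counts equal to 51.3% of the Eno1 counts in RGECO and 53.9% in WT. Pgam2, the muscle phosphoglycerate mutase, averaged 235 ± 37.5 TPM (SD, n = 5) in RGECO and 257 ± 14.3 TPM (SD, n = 6) in WT (edgeR log2 fold change -0.28, adjusted p = 0.261). Its relative Pgam1, the form found in most tissues, differed by 0.07 (adjusted p = 0.779), the kinase Pgk1 by 0.20 (adjusted p = 0.258) and the pyruvate kinase Pkm by -0.03 (adjusted p = 0.954). With the Malat1 and mitochondrial covariates Pgam2 passed as lower, at -0.41 and -0.38 (edgeR adjusted p = 0.00677 and 0.00661). Rows named as copies of Aldoa, Gapdh, Pgk1, Pgam1 and Ldha held 0.0209% to 1.26% of the parent gene's counts in either line.

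**Figure D2:**
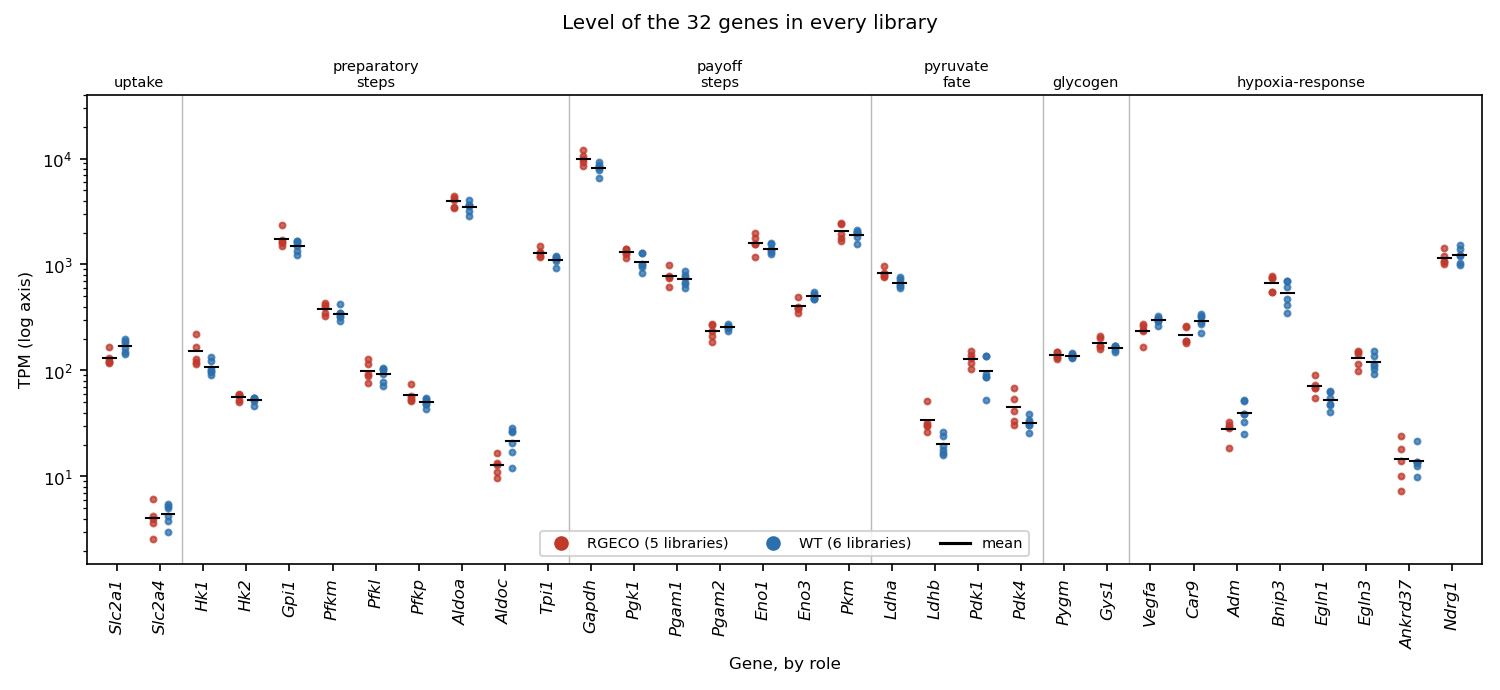
TPM of the 32 genes on a log axis, by role; each point is 1 library, RGECO to the left of WT for each gene, and bars are means. Levels span from 2.55 TPM for Slc2a4 in RGECO replicate 5 to 11916 TPM for Gapdh in RGECO replicate 1. The lines lie close together for most genes. Aldoc averages 12.8 TPM in RGECO and 21.9 TPM in WT, and Ldhb 34.2 TPM in RGECO and 20 TPM in WT.

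All 4 pyruvate-fate genes had log2 fold changes above 0 in the 11 libraries, while Ldha was at -0.05 when RGECO replicate 4 was kept in. Of the 4 genes 1 passed in the 11 libraries, or 25% beside 8.35% of all genes. Lactate dehydrogenase joins A and B subunits, from Ldha, the form of fast muscle, and Ldhb, the form of heart. Ldhb measured 26.3, 30.6, 30.2, 32.1 and 52 TPM in RGECO libraries, against 15.9, 19.3, 24.2, 26.4, 16.6 and 17.8 TPM in WT libraries. The TPM ranges met only at RGECO replicate 1 and WT replicate 4. Its log2 fold change was 0.55 ± 0.15 (SE, edgeR adjusted p = 0.0379). The call held without RGECO replicate 1 or WT replicate 2, and was lost without RGECO replicate 2, 3, 5 or 6 (adjusted p = 0.0837, 0.0772, 0.07 and 0.0765) or WT replicate 1, 3, 4, 5 or 6 (adjusted p = 0.0672, 0.0505, 0.0513, 0.0822 and 0.0669). Ldha averaged 829.7 ± 78.8 TPM (SD, n = 5) in RGECO and 674 ± 62.5 TPM (SD, n = 6) in WT. Every RGECO library, from 768 to 960.3 TPM, lay above every WT library, from 595 to 757 TPM, though the share of all genes so separated on TPM was not counted. On CPM the lines overlapped, at 841 to 998 in RGECO and 675 to 942 in WT, and neither fit called Ldha (edgeR log2 fold change 0.17, adjusted p = 0.35; limma on log2(TPM + 1) 0.30, adjusted p = 0.099).

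Pdk1 and Pdk4 encode kinases that switch off pyruvate dehydrogenase and so hold pyruvate back from oxidation. Pdk1, a HIF target, averaged 129 ± 19.1 TPM (SD, n = 5) in RGECO and 98.8 ± 32.8 TPM (SD, n = 6) in WT, with WT replicate 2 lowest at 52.7 TPM (edgeR log2 fold change 0.24, adjusted p = 0.255). Pdk4, induced in muscle by fasting and fatty acids, ran from 30.8 to 68.7 TPM in RGECO and from 25.7 to 39.2 TPM in WT. Its log2 fold change of 0.31 ± 0.11 (SE) did not pass (edgeR adjusted p = 0.0891). Without RGECO replicate 5 it passed at 0.37 (edgeR adjusted p = 0.0481), and with the Malat1 and mitochondrial covariates at 0.32 and 0.33 (adjusted p = 0.0397 and 0.0164). Pdk1 passed with the same covariates, at 0.36 and 0.32 (adjusted p = 0.00676 and 0.0168).

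Neither glycogen gene passed by edgeR, limma or DESeq2, and 0 of the 2 had an unadjusted edgeR p under 0.05. Pygm, the muscle phosphorylase that frees glucose-1-phosphate from glycogen, measured 128 to 148 TPM in RGECO libraries and 132 to 145 TPM in WT libraries (edgeR log2 fold change -0.08 ± 0.11, SE; adjusted p = 0.746). Its coefficient of variation in TPM was 6.62% in RGECO and 3.84% in WT, the lowest of the 32 genes in each line. Gys1, the glycogen synthase of muscle, averaged 183 ± 22.1 TPM (SD, n = 5) in RGECO and 164 ± 8.97 TPM (SD, n = 6) in WT (edgeR log2 fold change 0.06, adjusted p = 0.811). The 95% intervals ran from -0.31 to 0.15 for Pygm and from -0.17 to 0.29 for Gys1 on the log2 scale.

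The 8 hypoxia-response genes moved in no common direction. Of these 0 rose and 1 fell, or 12.5% beside 8.35% of all genes. A log2 fold change above 0 was seen in 3 and below 0 in 5, and the median was -0.13. Car9 encodes carbonic anhydrase IX, an enzyme of the cell surface that handles acid and a HIF target. It measured 261, 189.7, 188, 257 and 180.3 TPM in RGECO libraries, against 284, 324, 319, 224, 343 and 272 TPM in WT libraries. WT replicate 4 lay among the RGECO libraries and the other 5 WT libraries lay above them all. The log2 fold change was -0.49 ± 0.12 (SE, edgeR adjusted p = 0.0213). It stayed at -0.42 to -0.47 without RGECO replicate 2, 3 or 6 or WT replicate 1, 3 or 5, where the call was lost (adjusted p = 0.0814, 0.0599, 0.0789, 0.0555, 0.0554 and 0.0708). The call was also lost on log2(TPM + 1), at -0.46 (limma adjusted p = 0.0843).

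Vegfa, the endothelial growth factor, averaged 237 ± 42.1 TPM (SD, n = 5) in RGECO and 299.9 ± 21.5 TPM (SD, n = 6) in WT. RGECO replicates 2, 3, 5 and 6 lay below every WT library on this scale, at 167 to 261 TPM, and replicate 1 stood at 277 TPM within the WT range of 264 to 324 TPM. The log2 fold change was -0.29 ± 0.11 (SE, edgeR adjusted p = 0.125). Adm, which encodes adrenomedullin, averaged 28.1 ± 5.56 TPM (SD, n = 5) in RGECO and 39.8 ± 10.6 TPM (SD, n = 6) in WT (edgeR log2 fold change -0.68 ± 0.23, SE; adjusted p = 0.0923; -0.78 and 0.0485 without WT replicate 3). WT replicates 1 and 2 were the highest, at 51.1 and 52.6 TPM, while WT replicate 3 stood at 25 TPM. Ndrg1, a stress-response gene, averaged 1153 ± 174 TPM (SD, n = 5) in RGECO and 1232 ± 209 TPM (SD, n = 6) in WT and was the most abundant of the 8 (edgeR log2 fold change -0.18, adjusted p = 0.532). Ankrd37, an ankyrin-repeat HIF target, ran from 7.36 to 23.9 TPM in RGECO and from 9.99 to 21.7 TPM in WT, the widest relative spread of the 32 genes in RGECO at a coefficient of variation of 44.4%.

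Egln1 and Egln3 encode the prolyl hydroxylases PHD2 and PHD3, which mark HIF for destruction and are themselves HIF targets. Egln1 measured 91.1, 67.9, 68.3, 54.8 and 73.2 TPM in RGECO libraries, against 47.6, 40.4, 48.6, 55, 63.7 and 63.3 TPM in WT libraries. All RGECO libraries but replicate 5 were above the WT range. The log2 fold change of 0.32 ± 0.10 (SE) missed the threshold (edgeR adjusted p = 0.069) and passed without RGECO replicate 5, at 0.37 (adjusted p = 0.0352). Egln3 averaged 131 ± 23.4 TPM (SD, n = 5) in RGECO and 119 ± 22.3 TPM (SD, n = 6) in WT (edgeR log2 fold change 0.03, adjusted p = 0.906). Bnip3, a receptor for mitophagy, averaged 675 ± 114 TPM (SD, n = 5) in RGECO and 541 ± 149.9 TPM (SD, n = 6) in WT, and WT replicates ran from 349 to 701 TPM (edgeR log2 fold change 0.25, adjusted p = 0.48). With the Malat1 and mitochondrial covariates Bnip3 passed as higher, at 0.50 and 0.46 (edgeR adjusted p = 0.00961 and 0.00212), Egln1 at 0.37 and 0.35 (adjusted p = 0.00905 and 0.00604), and Vegfa as lower, at -0.31 and -0.33 (adjusted p = 0.0369 and 0.0143).

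Isozyme shares remove the library's overall level from the comparison. For 7 families the share of the family's summed TPM was computed in each library and compared by a two-sided exact permutation test over 462 assignments, for which the smallest p is 0.00216, with adjustment over the 7 families. Muscle enolase Eno3 made up 20.31% ± 3.54 (SD, n = 5) of Eno3 and Eno1 in RGECO and 26.23% ± 1.36 (SD, n = 6) in WT (exact permutation p = 0.00433, adjusted p = 0.0303). RGECO replicate 5, at 24.7%, was the only RGECO library to reach the WT range, which began at 23.95%. With Eno1b counted in the family, an alternative chosen after the data were seen, the difference was -4.28 percentage points (exact permutation adjusted p = 0.0303). Aldoa made up 99.68% ± 0.05 (SD, n = 5) of the aldolase TPM in RGECO and 99.39% ± 0.14 (SD, n = 6) in WT, the lines did not overlap, and Aldoc held the rest (exact permutation p = 0.00866, adjusted p = 0.0303). Hk2 made up 27.89% ± 4.49 (SD, n = 5) of hexokinase TPM in RGECO and 33.03% ± 2.78 (SD, n = 6) in WT, which did not pass (exact permutation p = 0.0411, adjusted p = 0.096). On estimated counts in place of TPM the Hk2 difference passed at -4.33 points (exact permutation adjusted p = 0.0303), and it passed at -6.35 points without RGECO replicate 6 (adjusted p = 0.0444).

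In the other 4 families the shares did not pass. Pfkm held 70.86% ± 3.53 (SD, n = 5) of the phosphofructokinase TPM in RGECO and 70.69% ± 3.63 (SD, n = 6) in WT (exact permutation adjusted p = 0.946). Pgam2 held 23.39% ± 2.73 (SD, n = 5) of the mutase TPM in RGECO and 26.37% ± 3.32 (SD, n = 6) in WT (exact permutation adjusted p = 0.194). Ldha held 95.98% ± 1.36 (SD, n = 5) of the lactate dehydrogenase TPM in RGECO and 97.07% ± 0.79 (SD, n = 6) in WT (exact permutation adjusted p = 0.194). Slc2a4 held 3.05% ± 1.09 (SD, n = 5) of the TPM of both transporters in RGECO and 2.57% ± 0.56 (SD, n = 6) in WT (exact permutation adjusted p = 0.472). In both lines Ldha and Slc2a1 therefore held most of the transcripts of their families. Without WT replicate 1, 2, 3, 4 or 6, each taken alone, the adjusted p was 0.0556 for both the enolase and the aldolase share by the exact permutation test. The differences then stayed at -5.61 to -6.04 and 0.272 to 0.331 percentage points, against -5.92 and 0.292 with all 11 libraries. Both shares still passed without WT replicate 5 or any 1 RGECO library. Fewer assignments were possible in each of these cases. Leaving out a WT library also made the lines equal in size, so each assignment tied with its mirror image. The smallest possible p was then higher than without an RGECO library, so the lost calls partly follow from the test.

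**Figure D3:**
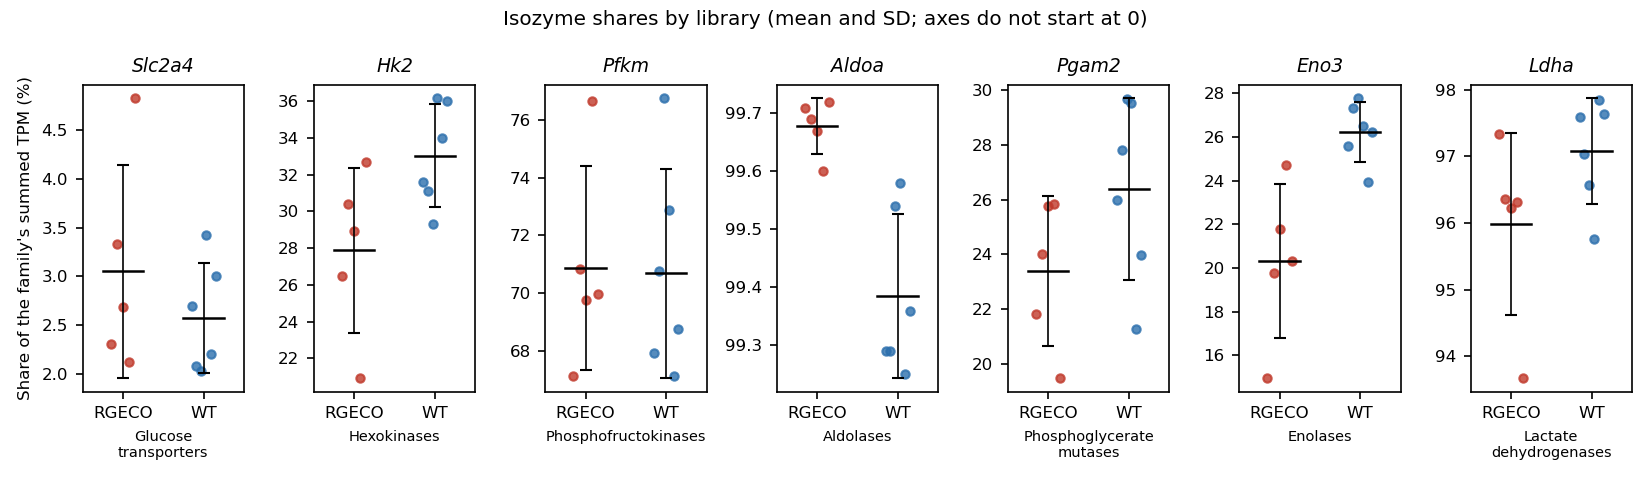
Share of each family's summed TPM held by the named isozyme, in percent, with 1 point per library, RGECO left and WT right, and mean with SD; the axes do not start at 0. Eno3 shares lie between 14.97% and 24.7% in RGECO and between 23.95% and 27.77% in WT, and Aldoa shares lie apart by under 1 point.

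The genes also varied between libraries of one line. The 16 genes of the preparatory and payoff steps summed to 24097 ± 2865 TPM (SD, n = 5) in RGECO, from 21183 to 28549, and to 20803 ± 1817 TPM (SD, n = 6) in WT, from 17452 to 22498. That is 2.41% and 2.08% of all TPM in RGECO and WT. The 8 hypoxia-response genes summed to 2524 ± 298 TPM (SD, n = 5) in RGECO and 2593 ± 327 TPM (SD, n = 6) in WT. On CPM, WT replicate 2 was the highest WT library for 21 of the 32 genes, while over all genes tested it was highest for 28.4% and lowest for 28.1%. On that scale Bnip3 and Pdk1 ran the other way, with WT replicate 2 the lowest WT library at 296 and 189 CPM. WT replicates 3, 4 and 6 were the lowest for 10, 9 and 9 of the 32 genes, beside 12.6%, 17.2% and 19.8% of all genes. In RGECO, replicate 6 was the lowest library for 14 genes, beside 21.8% of all genes, and replicates 1 and 5 were the highest for 9 each, beside 18.1% and 26%. The order depends on the scale. On TPM, WT replicate 2 was the highest WT library for 8 of the 32 genes and the lowest for 7, beside 9.36% and 41% of all genes, and RGECO replicate 1 was the highest RGECO library for 21, beside 33.1%. WT replicate 2 had the smallest Malat1 and mitochondrial shares of the WT libraries, 0.156% and 0.204%, and the part of these shares in its values was not tested.

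**Figure D4:**
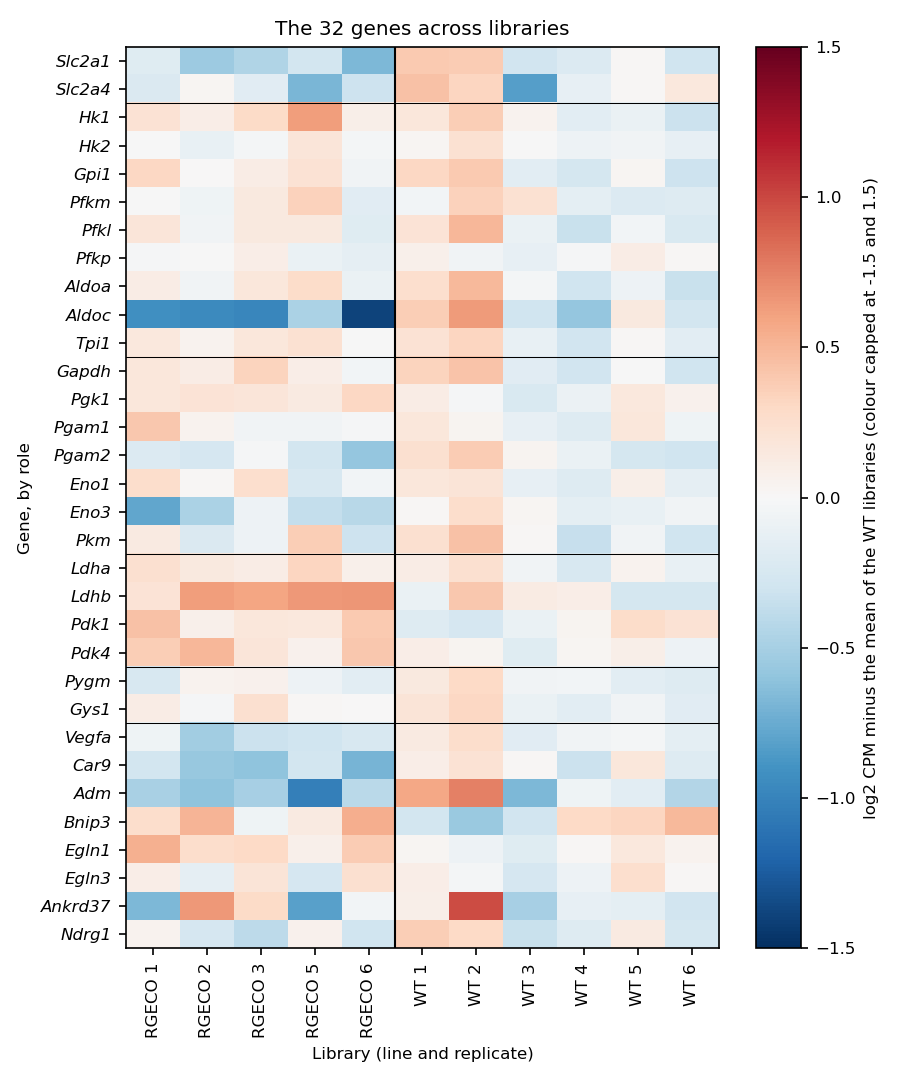
Log2 CPM minus the mean of the WT libraries for each of the 32 genes (rows, by role) in each library (columns, RGECO left of WT). Aldoc is below that mean in all 5 RGECO libraries and Ldhb above it, and the WT replicate 2 column is above it for most genes but below it for Bnip3.

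Other genes of the same pathways show how the 32 sit among their neighbours. These lists were chosen with earlier results of these data known, so their called shares do not test the pathways. Of 25 tested genes of glycolysis and pyruvate metabolism outside the 32, 1 rose and 2 fell, 12% beside the 8.35% of all genes. The largest change was in Slc16a3, the lactate exporter MCT4 of glycolytic muscle and a HIF target, at 17.4 ± 2.34 TPM (SD, n = 5) in RGECO and 51.3 ± 8.28 TPM (SD, n = 6) in WT. Its libraries ran from 13.5 to 19.5 TPM in RGECO and from 37.3 to 59.6 TPM in WT, with no overlap. How many of all genes lie apart on TPM was not counted. The log2 fold change of Slc16a3 was -1.68 ± 0.16 (SE, edgeR adjusted p = 1.6e-05). Slc2a3, the transporter GLUT3, fell by 1.17 on the log2 scale (edgeR adjusted p = 0.00105). It averaged 3.7 TPM in RGECO and 5.21 TPM in WT. On log2(TPM + 1) its change was smaller, at -0.45, and was not called (limma adjusted p = 0.343). Pfkfb3, which makes the activator of phosphofructokinase, rose by 0.47 (edgeR adjusted p = 0.0391). That call was lost without any RGECO replicate or WT replicate 3, 4, 5 or 6 (adjusted p = 0.0555 to 0.0921). Of 21 tested glycogen genes outside the 32, 1 rose and 0 fell, or 4.76% beside 8.35% of all genes. The gene was Ppp1r3b, a subunit that targets phosphatase to glycogen, at 0.48 (edgeR adjusted p = 0.0227). It lost the call without RGECO replicate 2 or WT replicate 5 (adjusted p = 0.0685 and 0.0504) and on log2(TPM + 1) (limma adjusted p = 0.0778).

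Of 10 tested regulators of HIF, among them Hif1a, its partner Arnt, Vhl and Hif1an, 0 rose and 0 fell by edgeR, by limma on TPM or by DESeq2. These called 8.35%, 4.29% and 9.57% of all genes, shares at which 0 calls among 10 genes is not unusual. At an unadjusted p under 0.05 edgeR gave 1, Epas1, the gene of HIF-2 alpha, at 0.13 ± 0.108 TPM (SD, n = 5) in RGECO and 0.402 ± 0.227 TPM (SD, n = 6) in WT (adjusted p = 0.0893). Of 29 tested hypoxia-response genes outside the 32, 3 rose and 5 fell, or 27.6% beside 8.35% of all genes. The list was chosen with earlier results of these data known, so that share does not test the pathway. Slc16a3 and Pfkfb3 are in this list too. Angptl4, an inhibitor of lipoprotein lipase, averaged 7.81 ± 1.4 TPM (SD, n = 5) in RGECO and 17.6 ± 2.99 TPM (SD, n = 6) in WT (edgeR log2 fold change -1.38, adjusted p = 5.9e-05). Car12, the carbonic anhydrase related to Car9, averaged 8.97 ± 3.47 TPM (SD, n = 5) in RGECO and 21.4 ± 3.31 TPM (SD, n = 6) in WT (edgeR log2 fold change -1.28, adjusted p = 0.000355). Neither overlapped between the lines in TPM. The share of all genes apart on TPM was not counted, and on CPM it was 7.97%. The median of the list was -0.04, and its called genes moved both ways.

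Of 14 tested genes that control glucose transport in response to glucose or insulin, 2 rose and 1 fell, 21.4% beside 8.35%. Here too the list was chosen with earlier results of these data known, so the share tests nothing about the pathway. Txnip, the arrestin-like protein that takes glucose transporters off the cell surface, averaged 441 ± 60.6 TPM (SD, n = 5) in RGECO and 168 ± 21.3 TPM (SD, n = 6) in WT (edgeR log2 fold change 1.29, adjusted p = 2.01e-05). Its relative Arrdc4, which like Txnip is a target of the glucose sensor MondoA in cultured cells, was lower, at 0.676 ± 0.433 TPM (SD, n = 5) in RGECO and 3.43 ± 1.3 TPM (SD, n = 6) in WT (edgeR log2 fold change -1.69, adjusted p = 0.0216; 0.063 and 0.0562 without RGECO replicates 2 and 3). Tbc1d1, a brake on GLUT4 delivery, rose by 0.35 (edgeR adjusted p = 0.0115; limma on log2(TPM + 1) 0.28, adjusted p = 0.34). With the near-empty RGECO replicate 4 (825 counts) kept in, edgeR no longer called Txnip (1.08, adjusted p = 0.304), Tbc1d1 (0.22, adjusted p = 0.908), Pfkfb3 (0.42, adjusted p = 0.395) or Ppp1r3b (0.46, adjusted p = 0.205).

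**Figure D5:**
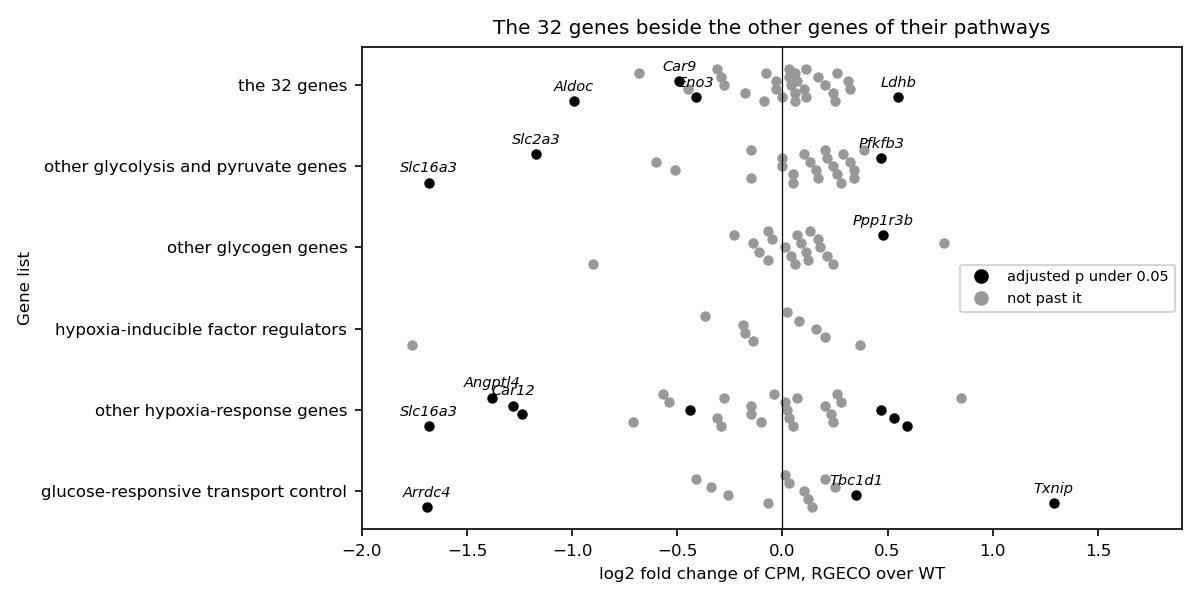
Log2 fold change of CPM, RGECO over WT, for the 32 genes (top) and 5 lists of other pathway genes; black points passed adjusted p under 0.05, and vertical jitter within a list carries no meaning. Slc16a3 at -1.68 and Txnip at 1.29 lie outside the range of the 32 genes, which runs from -0.99 to 0.55.

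The tissue check concerned all libraries. The 8 skeletal muscle markers, among them Ckm, Acta1 and Ttn, were all expressed. They summed to 12838 to 17464 TPM in RGECO and 10182 to 12248 TPM in WT. In RGECO 1 was higher, the embryonic myosin Myh3, and 1 lower, the actin cross-linker Actn2, or 25% of the 8. Of 8 mesenchymal markers, 7 of them expressed, 2 rose and 4 fell, or 85.7% of those tested beside 8.35% of all genes. Log2 fold changes of these ran from -1.98 for Col1a1 to 0.96 for Dcn and Ly6a. Summed levels were 1949.8 to 2422 TPM in RGECO and 1482 to 2446 TPM in WT. The part of these markers in the differences above was not tested. All 5 adipocyte and all 5 endothelial markers were at or near 0, with sums of at most 0.347 and 1.17 TPM in RGECO and 1.05 and 0.718 TPM in WT. Of 5 immune markers Cd68 alone was above 0.5 TPM on average. Of 5 proliferation markers 0 rose and 1 fell, Ccnb1, or 20%. Libraries held 5881622 to 11926220 counts in RGECO and 9370322 to 11744314 in WT, and the lowest count of any of the 32 genes in a library was 27, in Slc2a4 and Ankrd37.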

How the data were processed

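Estimated counts and TPM per gene were deposited by the authors for each of the 12 libraries. The unit names come from the deposited tables; per the submitters' processing notes Salmon, STAR, bedtools 2.25.0 and BWA 0.7.12-r1039 were used, with no role given, and builds mm10, hg19 and GRCm39 are listed, so the build of the tables is not settled here and no coordinate is taken from them. Per the labels' protocols, libraries were poly(A)-selected, amplified with 14 PCR cycles and read as 50-base pairs. The estimated counts were rounded, filtered with filterByExpr, scaled by TMM and tested with edgeR 4.0.16 (quasi-likelihood, robust; common biological variation 25.2%), with Benjamini-Hochberg adjustment over all 13318 genes tested. RGECO replicate 4 fell under a minimum of 1000000 counts. Alternatives used limma 3.58.1 on log2(TPM + 1) for genes with at least 1 TPM in 5 libraries, DESeq2 1.42.0, other scaling and filters, covariates, a replicate block and leaving out each library, in R 4.3.3. No pair of same-line libraries agreed within sampling noise (chi-square per gene at least 7.73 over 25 pairs). In data simulated for RGECO against WT, 69% of 200 genes changed 2-fold were recovered among 13108, and 6.12% of the calls were false. Recovery of smaller changes, such as most of the 32 genes show, was not simulated, nor were shifts of whole libraries. The 32 genes and all lists were chosen with earlier results of these data known. Named genes outside the 32 are, per list, up to 3 called genes with the largest absolute log2 fold change; Epas1 was named after its value was seen. Promoter windows shown are those of the 4 called genes, Ldha and Pgk1. Each table holds the libraries under their titles, and no interval covers more than the spread between libraries.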

Additional observations from a re-analysis of the deposited data

Results flagged for a closer look

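Of 78 sets of values looked at, 6 held a library far from the rest of its line, where chance flags about 1 in 20. RGECO replicate 1 stood highest for the transporter Slc2a1 at 167 TPM (next 130.5), the isomerase Gpi1 at 2343 TPM (next 1717) and the phosphofructokinase Pfkp at 74.2 TPM (next 57.1). RGECO replicate 6 stood highest for Ldhb at 52 TPM (next 32.1), and on CPM it was highest by little, at 27.5 with the next at 27.3. In WT, replicate 1 stood lowest for the hexokinase Hk2 at 45.8 TPM (next 51.8), and replicate 2 stood highest for Ankrd37 at 21.7 TPM (next 13.6).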

How the results depend on the processing

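The number of the 32 genes called was 4, and it was 1 to 4 with 1 library left out, 2 with all 12 libraries, 7 with DESeq2, 1 with limma at either pseudocount and 0 without the TPM filter, 2 with the replicate block, and 12 and 11 with the Malat1 and mitochondrial covariates. Over all genes 1112 were called, against 568, 537 and 258 with limma at pseudocounts of 1 and 0.1 and without a filter, and 2771 and 3133 with those covariates. The causes were not tested. The fit with all 12 libraries includes RGECO replicate 4, with 825 counts, and its SE for Gapdh was 0.97, against 0.15 with 11 libraries. With all 12 libraries the sign turned for Gpi1 (-0.14), Pfkm (-0.17), Pfkl (-0.07), Aldoa (-0.19), Tpi1 (-0.13), Gapdh (-0.14), Pgk1 (-0.05), Pgam1 (-0.15), Eno1 (-0.19), Ldha (-0.05), Gys1 (-0.13) and Egln3 (-0.09). With the Malat1 covariate it turned for Pfkm (-0.07), Pfkl (-0.09), Aldoa (-0.07), Gapdh (-0.02) and Gys1 (-0.02), and with the mitochondrial covariate for Pfkm (-0.06), Pfkl (-0.08) and Aldoa (-0.05). On TPM it turned for Pfkp (0.21), Pkm (0.09) and Pygm (0.02). Leaving out 1 library spanned 0 for Pfkm (-0.03 to 0.13), Pfkl (-0.03 to 0.15), Pfkp (-0.06 to 0.02), Pgam1 (-0.02 to 0.12), Pkm (-0.13 to 0.08), Egln3 (-0.01 to 0.10) and Ankrd37 (-0.30 to 0.19). None of these genes was called in the 11-library fit. Shares moved with 1 library left out from -1.28 to 1.39 points for Pfkm, -6.35 to -3.41 for Hk2, 0.265 to 0.331 for Aldoa and -7.02 to -4.59 for Eno3, and Hk2 was at -4.33 on estimated counts.

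Replicate numbers did not pair the libraries: same-numbered deviations correlated at -0.00887, -0.153, 0.0074, -0.151 and 0.364, and 1 of 5 numbers had its own partner as the highest. The replicate block gave 777 calls over all genes, Pfkl at -0.02, and share differences of 0.331 for Aldoa and -5.86 for Eno3, where 5 pairs allow no exact p under 0.0625. RGECO replicate 5 had the fewest counts, 5881622, and Slc2a4 and Ankrd37, with as few as 27 counts in a library, had the least precise levels.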
